A study of Mus musculus with 9 samples.

Results

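RNA of mice with a ligated bile duct that received senkyunolide A was compared with RNA of sham-operated mice, gene by gene. The study sequenced polyA RNA of mice, labelled as coming from cholangiocytes, which form the epithelium of bile ducts. Its 3 groups of 3 libraries had a sham operation, a ligated bile duct (BDL), or the ligation together with senkyunolide A, a phthalide found in the herb Ligusticum chuanxiong. The 6 libraries used here differ in both the operation and the compound, so the effects of the 2 cannot be told apart within this comparison. The labels give no genotype, strain, age, sex, dose, route or time, and no label states that each library is a different animal. A p-value here therefore reflects library-to-library variation, part of which may be technical. Expression was given as FPKM, the fragments assigned to a gene, scaled by the length of its transcript and by the fragments of the library. Of 22173 genes in the table, 9751 averaged 1 FPKM or more across these 6 libraries and were compared, and 12422 were not, of which 5737 were at 0 in all 6 libraries. The gene nearest above this limit, Lpcat1, read 0.878, 0.738 and 0.632 FPKM in the sham libraries and 0.517, 1.74 and 1.5 with ligation and compound. The gene nearest below it, Zfp628, read 1.56, 0.561 and 0.792 and 1.65, 0.613 and 0.803. A gene low in 1 group passed this limit only through the other, so among low genes the limit favours large differences. Spink1, Orm3, Ubd, Prtn3, Gpx2, Trem2, Krt7, Krt19, Timp1, Slc51b, Chil3, Sult1e1 and Retnlg, named below, were under 1 FPKM in every sham library. They were tested only because of their treated levels. The same held for S100a4 and Ly6d, which averaged under 1 FPKM in sham. Ces2b, E2f8, Gbp10 and F830016B08Rik averaged under 1 FPKM in the treated libraries and were tested only because of their sham levels. Further genes named below may belong to either set.

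Ligation of the common bile duct stops bile flow, so bile acids build up in the liver and the bile ducts come under pressure. A liver under inflammatory signals makes more acute phase proteins, which hepatocytes secrete into plasma under interleukin 6 and STAT3, and metallothioneins, small metal-binding proteins whose genes respond to zinc, glucocorticoids and cytokines. Kupffer cells are the macrophages that reside in the liver, and neutrophils enter injured liver from blood. Major urinary proteins are pheromone carriers that hepatocytes of mice secrete under growth hormone, and their messages are among the most abundant of a healthy male mouse liver.

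Estimated depth was 27.3 to 30.9 M fragments in the sham libraries and 30.7 to 33.0 M fragments with ligation and compound. Albumin (Alb), the plasma protein of hepatocytes, read 29048, 46222 and 39121 FPKM in sham and 35510.0, 22249 and 29327 with ligation and compound, and the bile duct keratin gene Krt19 read 0.96, 0.816 and 0.672 FPKM in sham and 1.91, 3.81 and 4.88 with ligation and compound. Hepatocyte markers held 28.3% ± 2.69 of all FPKM in sham and 26.7% ± 1.18 with ligation and compound (SD, n = 3, exact two-sided permutation test p = 0.5). This share includes the abundant Hpx, which had the list's largest rise (log2 difference 2.36, values below). The near-equal shares therefore do not show that the other members were unchanged, and the share without Hpx was not computed. Markers of biliary epithelium held 0.0605% ± 0.0119 in sham and 0.21% ± 0.0928 with ligation and compound (SD, n = 3), with no overlap between the groups (exact permutation p = 0.1, the smallest that 3 against 3 allows). This share includes the abundant keratins Krt8 and Krt18, which hepatocytes make as well (values below). The share without them was not computed, so its rise need not be one of biliary cells. Hepatocyte messages thus outweighed those of biliary cells in every library, against the cholangiocyte label, so the libraries are called by their treatment. Krt19, Alb and the Epcam, Sox9 and Gstm1 values below were chosen after their values were seen.

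Libraries of the ligated and treated group were unlike each other, and library 1 lay near sham. In a principal component analysis of the tested genes, component 1 held 72.1% of the variance over the 6 libraries. On it the sham libraries lay between -33.6 and -27.6, treated library 1 at -10.2, library 2 at 46 and library 3 at 58.2. In library 1 the number of tested genes at least 1 log2 unit above the whole sham range was 172, against 823 in library 2 and 945 in library 3. Below the sham range by as much were 50, 308 and 506 genes. Leading genes are therefore given library by library, and list counts also without library 1, where 12.5% of all tested genes were called higher and 6.21% lower. Library 1 was set apart because it lies near sham, so leaving it out was bound to widen most differences. Calls gained that way describe the other libraries and support nothing further.

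In limma, over all tested genes and with Benjamini-Hochberg adjustment at 0.05, 256 of the 9751 genes (2.63%) differed from sham. Of these 208 (2.13%) were higher and 48 (0.492%) lower with ligation and compound, and 233 differed by at least 1 log2 unit. Without adjustment 2258 of the 9751 genes had a p under 0.05. The groups did not overlap in any of the 256, nor in 29.5% of all tested genes, 17.2% in the higher and 12.3% in the lower direction. The median log2 difference of all tested genes was 0.031, and under median-ratio scaling, which moved it to -0.040, 93 genes were higher and 42 lower (68.9% higher against 81.25%). Quantile normalization moved it to -0.053 and gave 86 higher and 38 lower (69.4% higher). The count rests on single libraries: it was 1828 (18.7%) without treated library 1, with 1221 higher (12.5%) and 607 lower (6.21%), 0 without treated library 2 and 10 without treated library 3. Without sham library 1, 2 or 3 it was 0, 3 and 5, and it was 61 when the BDL libraries gave no estimate of the spread. The near-sham library had 30.7 M fragments, within the range of the other libraries.

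**Figure D1:**
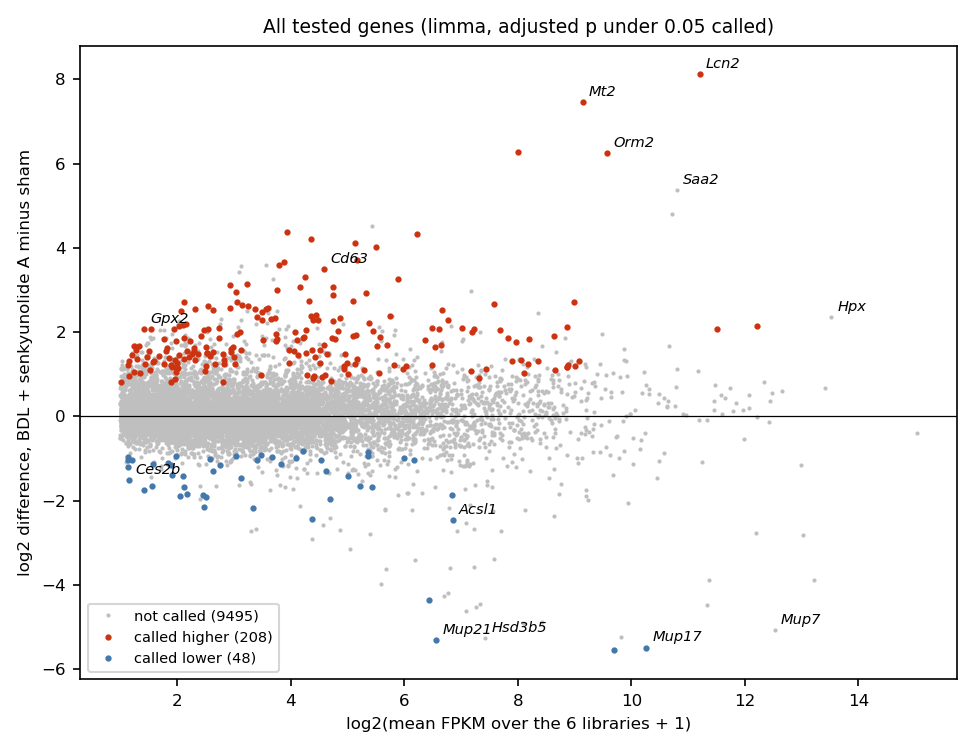
Log2 difference between BDL plus senkyunolide A and sham (y axis, log2(FPKM + 1)) against mean level over the 6 libraries (x axis, log2) for the 9751 tested genes, one point a gene. The 208 genes called higher reach 8.12 (Lcn2) and the 48 called lower reach -5.56 (Mup15), while Hsd3b5, Mup7, Saa2 and Hpx are among the genes not called.

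**Figure D2:**
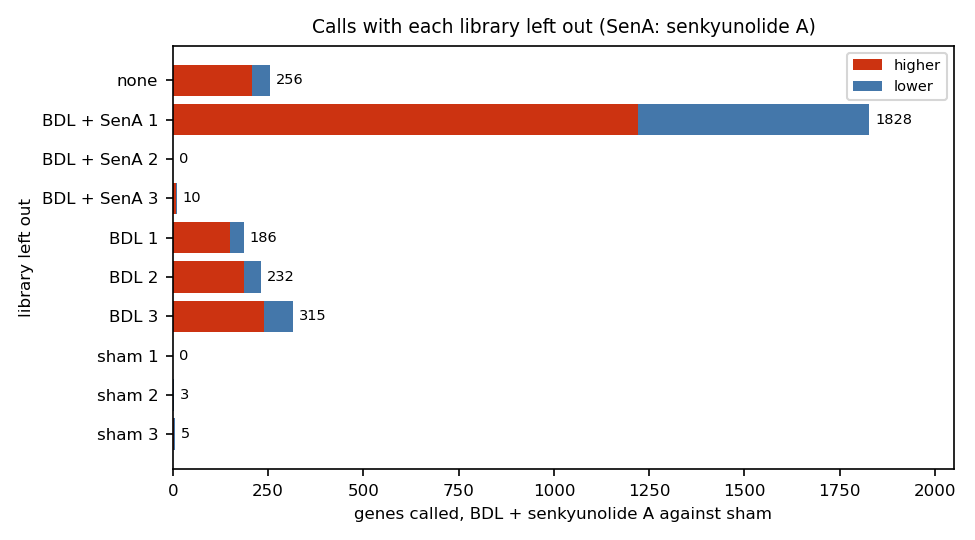
Number of genes called (x axis) in the fit of all libraries and in fits that leave out 1 library each (y axis), higher in red and lower in blue. Leaving out treated library 1 raises the count from 256 to 1828, and leaving out treated library 2 or sham library 1 takes it to 0.

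The largest rises were in an iron-binding secreted protein, the metallothioneins and the acute phase orosomucoids. Lcn2 (chromosome 2, 32384637 to 32387739, GRCm38.p6), which encodes lipocalin 2, a binder of bacterial siderophores, read 2.85, 14.7 and 5.19 FPKM in sham libraries 1, 2 and 3 and 169, 5902 and 8086 with ligation and compound. Its log2 difference was 8.12 ± 1.17 (SE, limma adjusted p = 0.0155). Library 1 lay above every sham library but far below libraries 2 and 3, and without it the difference was 9.90. The metallothionein gene Mt2 read 2.74, 2.77 and 4.08 FPKM in sham and 181, 972 and 2229.9 in the treated libraries, a log2 difference of 7.47 ± 0.94 (limma adjusted p = 0.0115). Its neighbour Mt1 read 4.18, 4.02 and 3.54 FPKM in sham and 125, 479 and 917 treated (6.28 ± 0.92, limma adjusted p = 0.0155). Both metallothionein genes stood in the same order in the treated libraries, lowest in library 1 and highest in library 3, and in each treated library Mt2 was above Mt1. The other 15 tested members of the metallothionein and zinc transporter list were not called, and the list's median log2 difference was 0.18.

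Mt1 and Mt2 lie next to each other on chromosome 8, and their promoter windows are shown because both genes are among the 12 largest rises. The windows are RefSeq's, on GRCm38.p6, from 250 bases before to 50 bases after the start used for each gene, on the plus strand, at chr8:94172368-94172667 for Mt2 and chr8:94178839-94179138 for Mt1. Capitals mark every match to the core of the metal response element, TGCNCNC, read on either strand.
Mt2: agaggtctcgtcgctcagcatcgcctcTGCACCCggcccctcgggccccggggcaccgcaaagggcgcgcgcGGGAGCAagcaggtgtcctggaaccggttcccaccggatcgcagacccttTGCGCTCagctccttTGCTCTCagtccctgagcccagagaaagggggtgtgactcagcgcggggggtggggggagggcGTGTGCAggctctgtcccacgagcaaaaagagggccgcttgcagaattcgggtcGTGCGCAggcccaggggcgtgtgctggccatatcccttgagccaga
Mt1: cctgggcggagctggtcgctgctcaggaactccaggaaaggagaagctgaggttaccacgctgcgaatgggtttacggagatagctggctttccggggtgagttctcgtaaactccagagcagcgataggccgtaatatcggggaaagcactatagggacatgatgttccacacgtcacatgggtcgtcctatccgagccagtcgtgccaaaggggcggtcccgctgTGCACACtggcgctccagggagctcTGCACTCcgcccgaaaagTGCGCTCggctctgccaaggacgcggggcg
Mt2 holds 6 matches and Mt1 holds 3. Of 32851 such windows in the genome 51.0% hold at least 1 match, 7.10% at least 3 and 0.225% at least 6. A match is a description of these letters, and no binding was measured. Transcript starts of the 2 genes in the GENCODE annotation lie from 7 bases before to 242 bases after the start used for the windows. For Mt1 the start used is 94179089, whereas RefSeq's gene begins upstream of it at 94178883. A window therefore need not end at the start used in these libraries.

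Among the other leading rises were genes of secretion and of myeloid cells. Orm2, an orosomucoid gene on chromosome 4, read 6.88, 11.3 and 6.83 FPKM in sham and 67.3, 2263 and 2194 treated (6.26 ± 1.03, limma adjusted p = 0.0263). Orm3 read 0.352, 0.0986 and 0.191 and 2.3, 53.1 and 61.1 FPKM (4.21 ± 0.85). Reads of the Orm genes can be shared between near-identical copies, so each gene's value is uncertain. Spink1, a secreted trypsin inhibitor, read 0, 0.0829 and 0.0867 FPKM in sham and 5.86, 27.9 and 51.5 treated, a log2 difference of 4.37 ± 0.60. Cib3, of the calcium and integrin binding family, read 11.3, 5.17 and 1.43 and 41.5, 162 and 220.2 FPKM (4.34 ± 0.64). In all 4 genes treated library 1 was the lowest of its group and still above sham.

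Cd14, the lipopolysaccharide co-receptor of monocytes and macrophages, read 1.31, 1.62 and 1.19 FPKM in sham and 6.5, 78.5 and 115 treated (4.12 ± 0.77, limma adjusted p = 0.0324). Cxcl1, a chemokine that attracts neutrophils, read 4.27, 3.23 and 0.767 and 9.85, 138 and 109 FPKM (4.01 ± 0.78). Marco, a scavenger receptor of Kupffer cells, read 2.93, 2.93 and 2.23 and 10.9, 95.6 and 96.4 FPKM (3.71 ± 0.64). In these genes libraries 2 and 3 stood several-fold above library 1. Ubd, which encodes the ubiquitin-like modifier FAT10, read 0.242, 0.971 and 0.352 FPKM in sham and 3.85, 25.3 and 51.8 treated (3.66 ± 0.67). Prtn3, the proteinase 3 of neutrophil granules, read 0.3, 0.756 and 0.603 and 3.78, 38 and 33.8 FPKM (3.6 ± 0.70).

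**Figure D3:**
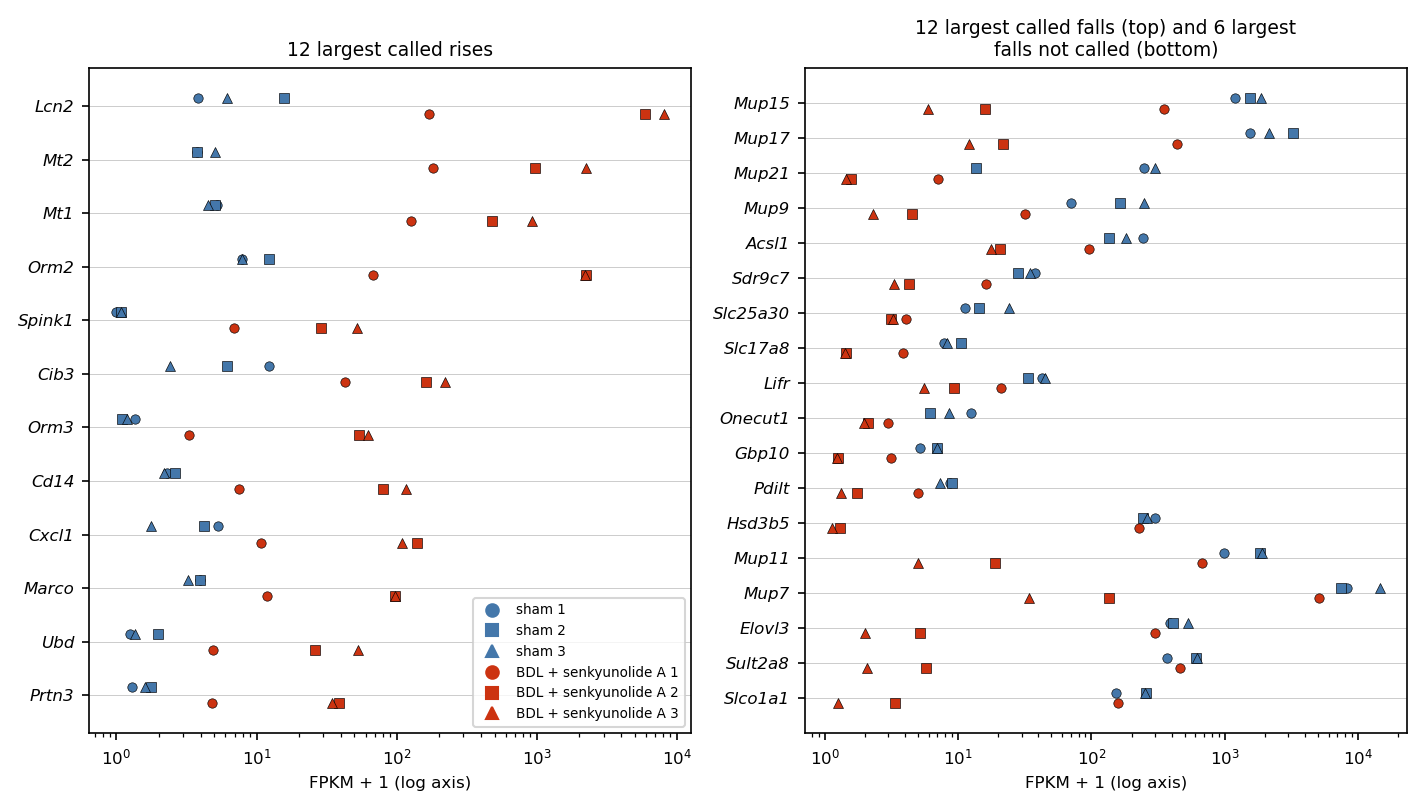
FPKM + 1 (x axis, log scale) in each of the 6 libraries for the 12 largest called rises (left) and for the 12 largest called falls and the 6 largest falls not called (right), with sham in blue, BDL plus senkyunolide A in red and the marker shape giving the library number. Treated library 1 lies between sham and the other treated libraries in the called genes, and at or near sham in Hsd3b5, Elovl3, Sult2a8 and Slco1a1.

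The largest falls were in major urinary protein genes on chromosome 4 and in genes of metabolism and transport. Mup15 read 1191, 1541 and 1882 FPKM in sham and 349, 14.9 and 4.99 treated (-5.56 ± 1.28, limma adjusted p = 0.0485). Mup17 read 1543, 3241 and 2130.4 and 440.1, 20.9 and 11 FPKM (-5.50 ± 1.2), and Mup9 68.8, 163 and 246 and 30.6, 3.51 and 1.29 FPKM (-4.36 ± 0.89). In Mup21 the sham libraries themselves differed, with 246, 12.6 and 298 FPKM, against 6.03, 0.562 and 0.448 treated (-5.31 ± 1.0). The treated libraries fell in the order 1, 2, 3 in each of these genes, which was also the order of the whole list: its 20 tested members had median shifts of -1.11, -4.71 and -6.32 log2 units from the sham mean in libraries 1, 2 and 3. Only those 4 of the 20 were called, against 0.492% of all genes called lower, and 17 lay below sham without overlap, against 12.3%. Without treated library 1 there were 19 called. Either scaling left 2 called, and the fit of the 6 libraries 0. Mup genes are near-identical copies, so values of single genes are uncertain.

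Acsl1, which activates long-chain fatty acids for oxidation and lipid synthesis, read 242, 135 and 181 FPKM in sham and 95.2, 19.8 and 16.8 treated (-2.47 ± 0.52, limma adjusted p = 0.0396). Slc25a30, a mitochondrial inner membrane carrier, read 10.3, 13.3 and 23.2 and 3.06, 2.15 and 2.26 FPKM (-2.19 ± 0.32), one of the falls in which library 1 lay close to the others. Lifr, the receptor subunit for leukemia inhibitory factor, read 41.2, 32.7 and 43.5 and 19.8, 8.35 and 4.56 FPKM (-1.96 ± 0.40). Onecut1, a transcription factor of hepatocytes and bile duct cells also known as HNF6, read 11.5, 5.18 and 7.55 FPKM in sham and 1.98, 1.11 and 0.961 treated (-1.91 ± 0.33), with all treated libraries below 2 FPKM. The remaining leading falls were in the dehydrogenase family gene Sdr9c7 (-2.44 ± 0.57), the vesicular glutamate transporter Slc17a8 (-2.14 ± 0.35), the guanylate-binding protein Gbp10 (-1.90 ± 0.35) and the disulfide isomerase family gene Pdilt (-1.88 ± 0.39). In all 4 the treated values ran from 0.227 FPKM (Gbp10, library 3) to 15.2 (Sdr9c7, library 1), and library 1 was the highest of its group.

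Some of the largest differences of all were not called, and in these library 1 read close to sham. Hsd3b5, a steroid-metabolizing enzyme of male mouse liver, read 301, 241 and 259 FPKM in sham and 225, 0.302 and 0.134 treated (-5.27 ± 1.51, limma adjusted p = 0.0727). Slco1a1, an organic anion uptake transporter, read 152, 253 and 249.7 and 156, 2.38 and 0.248 FPKM (-4.62 ± 1.5, limma adjusted p = 0.101). Sult2a8, a sulfotransferase, read 371, 611 and 621 and 460.4, 4.74 and 1.06 FPKM (-4.89 ± 1.57). In Slco1a1 and Sult2a8 library 1 lay inside the sham range, while libraries 2 and 3 were under 5 FPKM. The fatty acid elongase Elovl3 (-4.90 ± 1.46), Mup11 (-5.24 ± 1.49) and Mup7 (-5.08 ± 1.57) had a like form, with library 1 somewhat below the sham range. Without treated library 1 all 6 were called, with log2 differences from -7.78 (Hsd3b5) to -6.70 (Slco1a1). Library 1 was the treated library nearest to sham in these genes, so leaving it out was bound to widen them.

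Of the 6 largest positive differences not called, 4 had the same uneven form. Saa2 and Saa1, the serum amyloid A proteins that rise most steeply in mouse acute phase responses, read 55.3, 6844 and 3765 and 76.6, 6386 and 3444 FPKM in treated libraries 1, 2 and 3, against 21.8, 40.1 and 21.2 and 31.9, 50.3 and 45.6 in sham (5.36 ± 1.45 and 4.80 ± 1.37, limma adjusted p = 0.0634 and 0.0719). Ly6d, a surface protein of the Ly6 family, read 0.187, 1.42 and 1.11 FPKM in sham and 3.86, 139 and 106 treated (4.52 ± 1.07). Chil3, a chitinase-like protein of macrophages, read 0.0421, 0.0227 and 0.0476 and 0.994, 22 and 42.4 FPKM (3.6 ± 0.87). These 4 were called without library 1. Reads of Saa1 and Saa2 can be shared between the copies. The estrogen sulfotransferase Sult1e1 was spread differently, at 0, 0.111 and 0.174 FPKM in sham and 6.15, 5.58 and 32.8 treated (3.42 ± 1.03). Library 1 was not its lowest treated library, and all treated values lay above all sham values.

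Members of the acute phase list were higher with ligation and compound. Of 31 tested acute phase proteins and regulators 8 were called higher and none lower, against 2.13% of all tested genes called higher, and all 31 had a positive difference (median 1.83, against 0.031 for all genes). In libraries 1, 2 and 3 the median shift from the sham mean was 0.59, 2.14 and 2.44 log2 units, and without library 1 there were 24 called. Socs3, the feedback inhibitor of interleukin 6 signalling (chromosome 11, 117966079 to 117970336), read 1.69, 2.45 and 3.06 FPKM in sham and 13.4, 25.3 and 19.1 treated (2.55 ± 0.33, limma adjusted p = 0.0124). Library 1 was the lowest of the treated libraries but lay near the others. Nnmt, nicotinamide N-methyltransferase, read 14.8, 18.6 and 21.6 and 39.1, 81.2 and 103 FPKM (1.87 ± 0.32). The others called were Lcn2, Orm1, Orm2, Orm3, Apcs and Hp. Counts were 5 under median-ratio scaling, 4 under quantile normalization and 2 in the fit of the 6 libraries alone. The STAT motif TTCNNNGAA lay in the promoter windows of 2 of the 5 called genes that have one, Apcs and Socs3, against 8.30% of all windows.

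**Figure D4:**
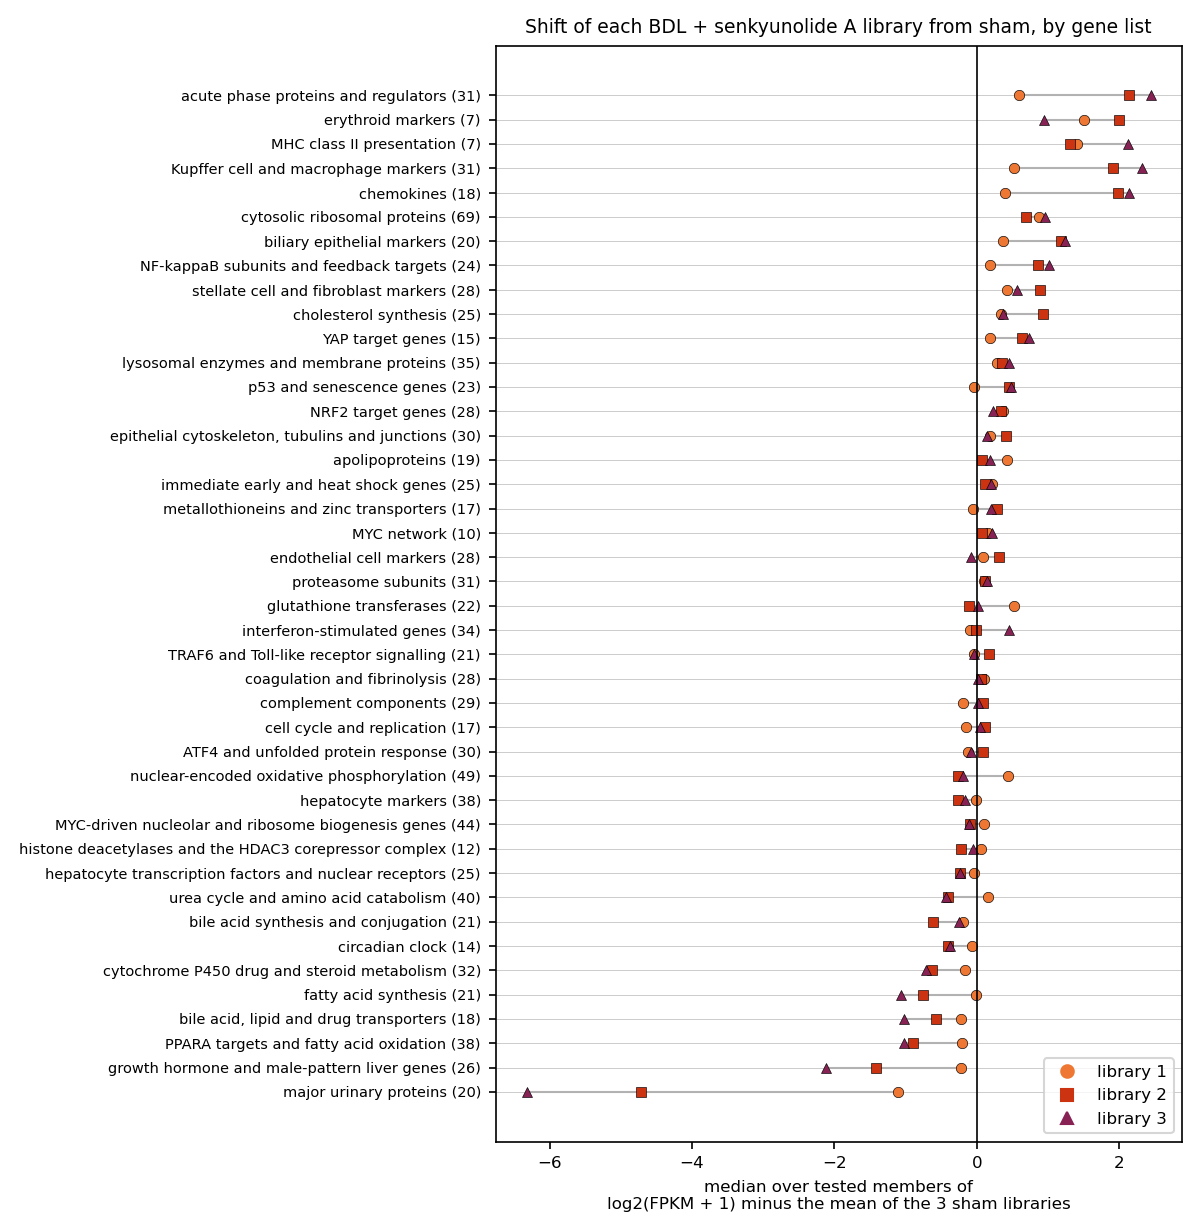
Median over the tested members of each gene list of the difference between each treated library and the sham mean (x axis, log2(FPKM + 1)), for lists with at least 5 tested members, whose number stands in brackets. Library 1 lies nearest to 0 in the acute phase, macrophage, chemokine and major urinary protein lists, and beside libraries 2 and 3 in the ribosomal protein and class II lists.

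The cell type list with the most called genes was that of macrophages. Of 31 tested Kupffer cell and macrophage markers 10 were called higher and none lower, against 2.13% of all genes called higher. All 31 differences were positive, and the median was 1.57. The median shift was 0.53, 1.91 and 2.32 log2 units in libraries 1, 2 and 3, and 27 were called without library 1. Lgals3, the galectin 3 of macrophages, read 2.68, 4.01 and 3.48 FPKM in sham and 9.82, 53.6 and 80.6 treated (3.06 ± 0.59, limma adjusted p = 0.0342). Trem2, a lipid-sensing receptor of macrophages, read 0.508, 0.428 and 0.607 and 3.29, 13.2 and 25.5 FPKM (2.96 ± 0.58). The others were Marco, Cd14, the complement chains C1qa, C1qb and C1qc, the adaptors Tyrobp and Fcer1g, and Cx3cr1. The list took 0.101%, 0.111% and 0.0852% of the summed FPKM in sham and 0.15%, 0.525% and 0.665% in the treated libraries (exact two-sided permutation p = 0.1). In bulk RNA more cells of a type and more RNA per cell cannot be told apart. No listed marker was at 0 in all 6 libraries. The count was 4 under either scaling and 1 in the fit of the 6 libraries.

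Neutrophil messages were low in sham. S100a8 and S100a9, the subunits of calprotectin, read 0.661, 3.66 and 1.68 and 1.61, 2.4 and 2.52 FPKM in sham and 7.8, 47 and 47.2 and 8.32, 48.5 and 38.6 treated (3.31 ± 0.60 and 3.06 ± 0.52, limma adjusted p = 0.0299 and 0.0299). Retnlg was listed at 0 in every sham library and read 0.856, 5.63 and 5.06 FPKM treated (limma adjusted p = 0.0342). These were 3 of only 4 neutrophil markers that passed the limit of mean FPKM, of 17 listed. In the fit of the 6 libraries none of them was called. At its sham level Retnlg would not have been tested, whereas S100a8 and S100a9 averaged above 1 FPKM in sham alone. The list's share of summed FPKM was 0.000804% to 0.00134% in sham and 0.00368%, 0.021% and 0.019% in the treated libraries (exact permutation p = 0.1). For the lymphocyte and plasma cell list, with 4 of 22 tested, 0 were called and 3 had an unadjusted p under 0.05. The smallest p there was for the immunoglobulin joining chain Jchain, at 3.71, 0.749 and 0.801 FPKM in sham and 5.43, 2.08 and 5.05 treated (limma adjusted p = 0.165).

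Genes of MHC class II presentation lay above sham in every treated library, library 1 included. All 7 tested members lay above sham without overlap, against 17.2% of all genes, with medians of 1.41, 1.31 and 2.13 log2 units in libraries 1, 2 and 3, and 2 were called, against 2.13% of all genes, and 7 without library 1. H2-Eb1, a class II beta chain, read 11.3, 10.4 and 9.28 FPKM in sham and 33.8, 27 and 39 treated (1.59 ± 0.23, limma adjusted p = 0.0155). H2-Aa, a class II alpha chain, read 32.3, 37.3 and 29.3 and 89, 177 and 284 FPKM (2.29 ± 0.35). Of 18 chemokines 4 were called higher, against 2.13% of all genes: Cxcl1, Cxcl14 (2.52 ± 0.44), Ccl6 (3.26 ± 0.66) and Cxcl16 (1.83 ± 0.40), with Ccl6 at 4.85, 8.29 and 7.55 FPKM in sham and 18.4, 96.1 and 217 treated. Either scaling left 2 chemokines called, the fit of the 6 libraries 0, and without library 1 there were 11. Of 24 NF-kappaB subunits and feedback targets 3 were called higher, against the same 2.13%, Cxcl1, the adhesion molecule Icam1 (1.61 ± 0.36) and the inhibitor Nfkbie (1.10 ± 0.26). Either scaling left 1 of them, the fit of the 6 libraries 0, and without library 1 there were 13 higher and 1 lower. Of 21 genes of TRAF6 and Toll-like receptor signalling 1 was called, Cd14, against the same 2.13%, and none in the fit of the 6 libraries. The list's median was 0.060, which turned to -0.017 under median-ratio scaling and -0.029 under quantile normalization.

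The keratin genes Krt18, Krt8 and Krt7 rose. Of 20 tested biliary epithelial markers 3 were called higher, Krt18, Krt8 and Krt7, and 1 lower, Onecut1, against 2.13% and 0.492% of all genes, and without library 1 there were 12 higher and 1 lower. Krt18 read 99, 63.6 and 69.6 FPKM in sham and 199.8, 408 and 395 treated (2.05 ± 0.31, limma adjusted p = 0.018), and Krt8, its partner in simple epithelia, 104, 84.7 and 88.6 and 193, 454 and 437 (1.86 ± 0.34). Krt7, a keratin of bile ducts, read 0.347, 0.331 and 0.323 and 1.37, 2.33 and 3.99 FPKM (1.35 ± 0.24). Hepatocytes make Krt8 and Krt18 as well, whereas Krt7 stayed under 4 FPKM in every library. Krt19 (1.26 ± 0.35, limma adjusted p = 0.0647), Epcam (0.63 ± 0.29, 0.218) and Sox9 (0.95 ± 0.42, 0.207) were not called. The list's share of summed FPKM was 0.103% in treated library 1 and 0.269% and 0.257% in libraries 2 and 3. In sham it was 0.0527% to 0.0742%. The keratins are members of the list and so make up part of this share. Whether the amount of biliary cells had a part in the keratin results was not tested. The 3 keratins were also the only called members of the 30 tested genes of epithelial cytoskeleton, tubulins and junctions, against 2.13% of all genes called higher. Of these 30, 9 were higher and 1 lower without library 1.

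Cytosolic ribosomal protein genes were higher in all 3 treated libraries, library 1 included. All 69 listed genes were tested and all had a positive difference, with a median of 0.86 and a range from 0.021 to 1.36. Of these 13 were called higher and none lower, against 2.13% of all genes called higher, and 63 lay above sham without overlap, against 17.2%. Median shifts in libraries 1, 2 and 3 were 0.87, 0.69 and 0.96 log2 units, so library 1 was not the nearest to sham here. Rpl32 read 269.8, 367 and 292 FPKM in sham and 686, 696 and 923 treated (1.31 ± 0.24, limma adjusted p = 0.0299). Rps20 read 28, 38.9 and 32.2 and 69, 71.3 and 93.3 FPKM (1.21 ± 0.23), Rps12 86.9, 107 and 81.4 and 182, 175 and 227 (1.08 ± 0.22), and Rpl38 106, 169.9 and 135 and 285, 337 and 386 (1.31 ± 0.27). The calls depended on scaling: median-ratio scaling left 0 of 69 called and quantile normalization 2, while the median stayed at 0.77 and 0.71. In the fit of the 6 libraries 0 were called, and without library 1 there were 37. Ribosomal protein genes have many processed pseudogenes, so reads could have been divided among copies.

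**Figure D5:**
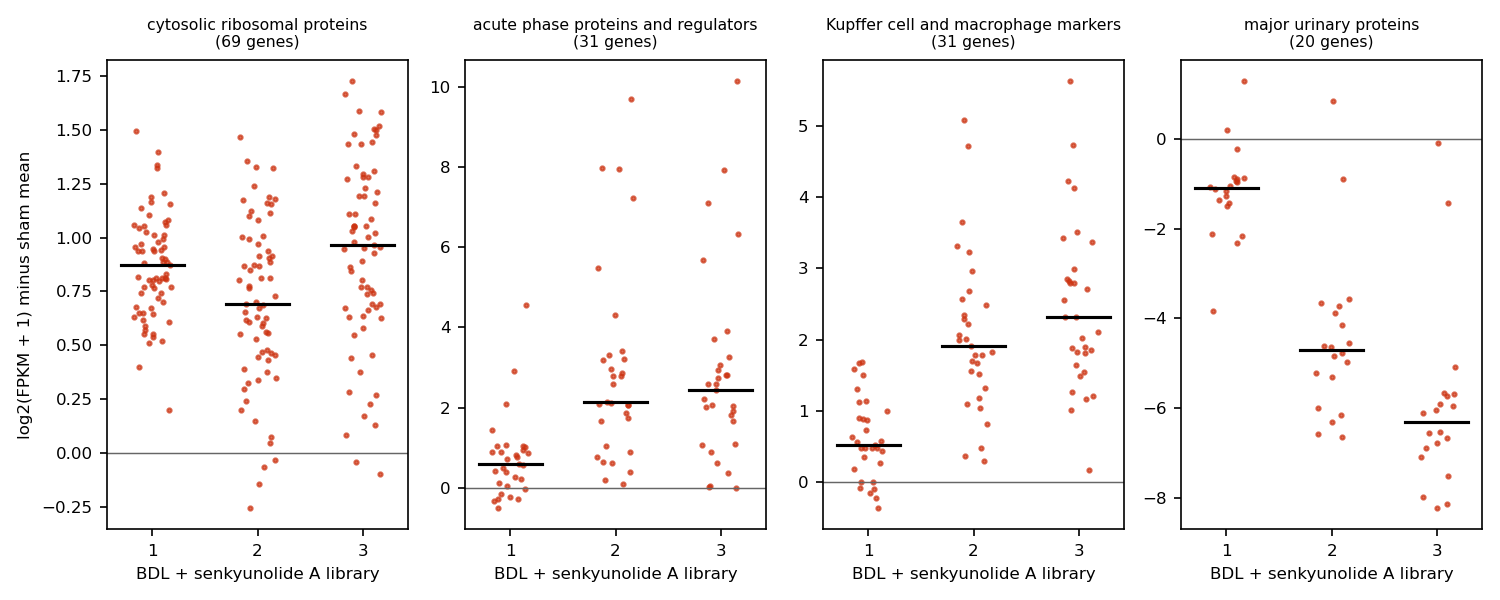
Difference of each treated library from the sham mean (y axis, log2(FPKM + 1)) for every tested member of 4 lists, with 1 point a gene and a bar at the median. Ribosomal proteins shift by 0.87, 0.69 and 0.96 in libraries 1, 2 and 3, whereas the acute phase (0.59, 2.14 and 2.44), macrophage (0.53, 1.91 and 2.32) and major urinary protein lists (-1.11, -4.71 and -6.32) shift least in library 1.

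Glutathione enzymes rose in part. Gpx2, a glutathione peroxidase of epithelia on chromosome 12 (76792335 to 76795554), was listed at 0 in sham libraries 1 and 2 and read 0.0343 FPKM in sham library 3, against 2.26, 3.35 and 4.35 treated (2.07 ± 0.21, limma adjusted p = 0.00868). It was called in 7 of the 9 fits with a library left out, the most of the genes named here. Among the 9 are fits without a BDL library, which kept all 6 compared libraries and changed only the estimate of the spread. Without treated library 2 or sham library 1 neither Gpx2 nor any other gene was called. Gpx2 passed the limit of mean FPKM only through its treated levels. With Nqo1, the NAD(P)H quinone dehydrogenase (1.65 ± 0.37), it was one of 2 called among 28 tested NRF2 target genes, against 2.13% of all genes called higher. Either scaling left 1 of the 2, and 7 NRF2 targets were higher and 3 lower without library 1. Of 22 glutathione transferases 6 were called higher and none lower, against 2.13% and 0.492% of all genes. Median-ratio scaling left 4 called and quantile normalization 2, and without library 1 there were 8 higher and 2 lower. Gstm3 (chromosome 3, 107963696 to 107969174) read 41.8, 30.5 and 34.8 FPKM in sham and 209.7, 148 and 116 treated (2.08 ± 0.37, limma adjusted p = 0.0299), and it was highest in library 1. Mgst3, a microsomal family member, read 6.82, 13.7 and 8.88 and 24.4, 44.4 and 66.8 FPKM (2.04 ± 0.41), and Gstt2 10.8, 13.1 and 13.6 and 26, 37.1 and 31.6 (1.26 ± 0.21). Gstm1, an abundant member, read 1216, 899.8 and 735 and 1775, 755 and 673 FPKM (0.055 ± 0.41), and its direction turned under both scalings. The list's median was 0.11, and it lay at 0.015 under median-ratio scaling and at -0.0019 under quantile normalization. The antioxidant response element TGACNNNGC, found in 12.4% of all promoter windows, lay in 0 of the 5 windows of called transferases and 0 of the 2 of called NRF2 targets, which says only that these letters are not there. Gstm and Gsta genes are close copies, so single values are uncertain.

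Lysosomal, red cell and transport genes gave smaller sets of calls. Of 35 lysosomal genes 4 were called higher, against 2.13% of all genes, with 13 without library 1 and 2 in the fit of the 6 libraries. Cd63, a tetraspanin of late endosomes, read 2.45, 3.18 and 1.79 FPKM in sham and 16, 47.1 and 68.5 treated (3.49 ± 0.44, limma adjusted p = 0.0115). Npc2, which carries cholesterol out of lysosomes, read 21.7, 20.7 and 16.7 and 39.2, 49.1 and 57.2 FPKM (1.25 ± 0.22), an even rise over the libraries. The proton pump subunit Atp6v0d2 was also among them (2.54 ± 0.47).

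Of 7 tested erythroid markers 3 were called higher, all globins, against 2.13% of all genes. The differences of 2 others were below 0 (lowest -1.45), 1 of them without overlap, and without library 1 there were 3 called higher and 1 lower. Either scaling left 1 called. Hba-a1 read 55, 45.5 and 38.9 FPKM in sham and 149.8, 186 and 124 treated (1.70 ± 0.34, limma adjusted p = 0.0352), and Hbb-bs 110.5, 116 and 101 and 312, 528 and 321 (1.77 ± 0.40). Globin messages were as high in library 1 as in library 3, and the list's share of summed FPKM was 0.0484% to 0.0565% in sham and 0.116%, 0.164% and 0.0955% in the treated libraries. Hba and Hbb copies share reads. Slc51b, the beta subunit of the basolateral bile acid exporter, read 0.796, 0.215 and 0.975 FPKM in sham and 1.8, 20.4 and 19.7 treated (2.72 ± 0.63, limma adjusted p = 0.0485). It was the only call among 18 tested bile acid, lipid and drug transporters, against 2.13% of all genes called higher. It was not called under either scaling or in the fit of the 6 libraries. Timp1, the tissue inhibitor of metalloproteinases made by stellate cells and others, read 0.0731, 0.356 and 0.165 and 1.84, 17.8 and 19.8 FPKM (3.12 ± 0.59). It was the only call among 28 stellate cell and fibroblast markers, against 2.13% of all genes called higher, and the list's median was 0.65. No stellate cell or fibroblast marker was called in the fit of the 6 libraries. Without library 1 there were 9 of these markers called higher and 1 lower, and 2 transporters higher and 6 lower.

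Lists of hepatocyte metabolism had negative medians with no member called. Over all tested genes 2258 of 9751 had an unadjusted p under 0.05. Of 26 tested growth hormone and male-pattern liver genes 0 were called and 16 had an unadjusted p under 0.05, with medians of -0.23, -1.41 and -2.12 log2 units in libraries 1, 2 and 3. Without library 1 there were 15 called lower. Of 38 PPARA targets and fatty acid oxidation genes 0 were called and 18 had an unadjusted p under 0.05 (median -0.68), and without library 1 there were 21 called lower and 1 higher. The count of 0 covers listed genes only: Acsl1, Aldh3a2 and Pex11a were called lower and are in no list. Ppara itself, the fatty acid sensor, read 27.4, 16.9 and 21 FPKM in sham and 13.4, 5.79 and 4.73 treated (-1.44 ± 0.34, limma adjusted p = 0.0506). For Cyp7b1, an oxysterol hydroxylase, the values were 174, 140.1 and 283 and 92.5, 23.6 and 9.56 FPKM (-2.73 ± 0.66, limma adjusted p = 0.0516). Both lay just outside the threshold and were below sham in every treated library.

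Bile acid synthesis (0 of 21 called, 6 with an unadjusted p under 0.05, median -0.40), cytochrome P450 enzymes (0 of 32, 13, -0.44) and fatty acid synthesis (0 of 21, 9, -0.63) also had negative medians. The P450 gene Cyp4f17 (-1.02 ± 0.23) was called lower but is in no list. Without library 1 these 3 lists had 8, 11 and 9 genes called lower and 2, 3 and 1 called higher. Cholesterol synthesis had 0 of 25 called, 9 with an unadjusted p under 0.05 and a positive median of 0.48, and without library 1 there were 6 called higher. Slc27a2, a bile acid and fatty acid coenzyme A ligase, read 591, 468 and 535 FPKM in sham and 373, 151 and 123 treated (-1.47 ± 0.36, limma adjusted p = 0.0545), and Cyp2c29, a drug-metabolizing P450, 862, 842 and 871 and 657, 186 and 133 (-1.75 ± 0.48, 0.0642). Of 25 hepatocyte transcription factors and nuclear receptors 1 was called, Onecut1, against 0.492% of all genes called lower. Without library 1 there were 5, all lower, against 6.21%. The hepatocyte markers as a whole had a median near 0 (0 of 38 called, 12 with an unadjusted p under 0.05, median -0.028), with 17 of the 38 differences above 0, and without library 1 there were 2 called higher and 12 lower. Hemopexin (Hpx), a heme-binding plasma protein, read 2116, 3964 and 3201 FPKM in sham and 4502, 27771 and 28862 treated (2.36 ± 0.61, limma adjusted p = 0.0581).

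Further lists had no called member, and their counts at an unadjusted p under 0.05 stand against 2258 of all 9751 tested genes. These were the endothelial markers (0 of 28, with 0 at an unadjusted p under 0.05), complement (0 of 29, 5), coagulation and fibrinolysis (0 of 28, 8), urea cycle and amino acid catabolism (0 of 40, 11), and interferon-stimulated genes (0 of 34, 5). The same held for cell cycle and replication (0 of 17, 0), p53 and senescence genes (0 of 23, 6), the ATF4 and unfolded protein response (0 of 30, 4), immediate early and heat shock genes (0 of 25, 13) and YAP targets (0 of 15, 7). It also held for oxidative phosphorylation (0 of 49, 5), proteasome subunits (0 of 31, 5), apolipoproteins (0 of 19, 8), clock genes (0 of 14, 6) and mesothelial markers (0 of 2, 2). The endothelial, complement, interferon, cell cycle, ATF4, oxidative phosphorylation and proteasome lists had a smaller share at such a p than all tested genes. Without library 1, where 18.7% of all tested genes were called in either direction, most of these lists had calls. Both directions together, there were 13 each in the urea cycle and immediate early lists, 11 in coagulation, 8 each in complement, YAP and p53 lists, 1 to 6 in the others and 0 in the endothelial list. The oxidative phosphorylation, interferon, ATF4, proteasome, cell cycle and endothelial lists lay below that share. Junb, an AP-1 subunit, came nearest among them, at 10.2, 10.8 and 9.71 FPKM in sham and 22.1, 29.4 and 31.3 treated (1.34 ± 0.32, limma adjusted p = 0.0505). A count of 0 covers listed genes only: the proteasome gene Psmb10 (0.99 ± 0.22) and the E2F family gene E2f8 (-1.65 ± 0.25) were called and are in no list. So were Ifi27l2b (2.48 ± 0.45) and Ifitm2 (1.23 ± 0.29), both of interferon-inducible families. Further called genes outside the lists may belong to these pathways.

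Some called genes differed from sham by a like amount on the log2(FPKM + 1) scale in all 3 treated libraries. Limd2, a LIM domain protein, read 3.95, 2.48 and 1.69 FPKM in sham and 6.39, 6.52 and 6.82 treated (1.08 ± 0.25, limma adjusted p = 0.0498). Use1, a SNARE of the endoplasmic reticulum, read 22.6, 23.9 and 25 and 48.2, 47.9 and 60.5 FPKM (1.09 ± 0.19). Rpsa (1.09 ± 0.24), the DNA polymerase delta subunit Pold4 (1.26 ± 0.27) and the secreted glutathione peroxidase Gpx3 (2.29 ± 0.46) were also among the 6 most even rises.

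Among the even falls, Mttp, the microsomal protein that loads lipid on to apolipoprotein B, read 101, 86.9 and 98.7 FPKM in sham and 50.5, 47.8 and 41 treated (-1.03 ± 0.23, limma adjusted p = 0.0458). Ces2b, a carboxylesterase on chromosome 8 (104828494 to 104840093), read 2.27, 2.15 and 2.4 and 0.438, 0.0444 and 0.009 FPKM (-1.51 ± 0.17, limma adjusted p = 0.00868). Its treated levels lay many-fold apart, and its shifts of -1.19, -1.65 and -1.70 are alike only because the pseudocount of 1 compresses such low values. It was low in library 1 as well, and with Socs3 and Mt2 it was called in 6 of the 9 fits with a library left out, counting the fits without a BDL library. F830016B08Rik (-1.40 ± 0.28), Fam126b (-1.15 ± 0.22), Slc25a30 and Onecut1 were the other even falls. Evenness was measured on the same libraries as the calls, so it describes them and supports nothing further.

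None of the genes in the series title was called. Myc, the growth-promoting transcription factor on chromosome 15 (61985341 to 61990361), read 1.39, 5.28 and 9.26 FPKM in sham and 6.59, 3.99 and 4.25 treated, with a log2 difference of 0.12 ± 0.45 (95% interval -0.86 to 1.11, limma adjusted p = 0.906). The treated values lay inside the sham range, which was itself wide, and with array weights the difference was -0.69 (limma adjusted p = 0.0305). With those weights 5043 of the 9751 tested genes were called. They weighted sham library 3, where Myc read 9.26 FPKM, at 4.70 and sham library 1, where it read 1.39, at 0.297. Traf6, a ubiquitin ligase downstream of Toll-like receptors, read 5.27, 3.41 and 3.74 and 3.08, 3.15 and 3.41 FPKM (-0.27 ± 0.20, interval -0.71 to 0.17, limma adjusted p = 0.453). Hdac3, a histone deacetylase, read 20.5, 15.3 and 16.2 and 18.6, 21.2 and 18.7 FPKM (0.17 ± 0.19, interval -0.25 to 0.59, limma adjusted p = 0.655). The intervals leave room for differences in either direction. Of 12 tested histone deacetylases and HDAC3 corepressor genes 0 were called, with 1 at an unadjusted p under 0.05, the corepressor Ncor1 at 9.49, 6.42 and 7.57 FPKM in sham and 5.45, 4.83 and 4.09 treated (-0.60 ± 0.20). Of 10 genes of the MYC network 0 were called (1 at an unadjusted p under 0.05), and of 44 MYC-driven nucleolar and ribosome biogenesis genes 0 (4).

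Values in the ligated group without the compound stand beside these, since both comparisons use the same sham libraries. In the same fit BDL differed from sham in 1042 genes (10.7%), 752 higher (7.71%) and 290 lower (2.97%), with 2738 at an unadjusted p under 0.05. Lcn2 read 1583, 1411 and 554 FPKM in BDL libraries 1, 2 and 3, Mt2 1166, 1406 and 128, Marco 36.9, 52.9 and 59.2 and Hsd3b5 1.12, 2.69 and 1.76. The log2 difference between the ligated groups, BDL plus senkyunolide A minus BDL, was 0.90 ± 1.17 for Lcn2 (95% interval -1.68 to 3.48), 0.30 ± 0.94 for Mt2 (-1.76 to 2.36) and -0.046 ± 0.64 for Marco (-1.45 to 1.36). These intervals are wide, and a p above the threshold does not show that the groups are alike. For Hsd3b5 it was 1.32 ± 1.51 (-2.01 to 4.64).

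A single gene (0.0103% of those tested) was called between the ligated groups, Gstm3, lower with the compound, with 1181 at an unadjusted p under 0.05. It read 761, 1545 and 2153 FPKM in BDL, so the treated libraries lay between sham and BDL without overlap with either (difference to BDL -3.15 ± 0.37, limma adjusted p = 0.027). Gpx2 had the same order, at 9.68, 8.12 and 11.5 FPKM in BDL (difference -1.33 ± 0.21, limma adjusted p = 0.193), as had Gstm2, at 123, 149 and 201 (difference -0.78 ± 0.24, 0.412). Gstm1 read 3301, 6486 and 5846 FPKM in BDL, above both other groups (difference -2.37 ± 0.41, 0.235). The globin Hbb-bs read 66.8, 92.1 and 237 FPKM in BDL, under every treated library (difference 1.72 ± 0.40, 0.412).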

How the data were processed

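FPKM per gene and library were deposited for 9 libraries, 3 a group, and are the values used. Per the labels' protocols, RNA was extracted with TRIzol and polyA RNA was made into libraries. The submitters' processing notes name CASAVA 1.8, fastp, HISAT2 2.0.5, featureCounts 1.5.0-p3, DESeq2 1.20.0 and the build GRCm38 (mm10), without saying which made the FPKM. Counts were not used here, so depth was estimated from the steps of low FPKM values.

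From the deposited FPKM, log2(FPKM + 1) was compared with limma 3.58.1 in R 4.3.3 (moderated test with a variance trend, two-sided, Benjamini-Hochberg over all tested genes, threshold 0.05). All 9 libraries gave the spread, and the tested genes averaged 1 FPKM or more across the 6 compared libraries. Such fold changes understate those of low genes. Values are given in the order of libraries 1, 2 and 3, and log2 differences with their SE. The fit was tested on simulated data. Their noise was independent for each gene and library, so no simulated library lay near another group across many genes, as treated library 1 did. That test therefore cannot show how the fit handles such a library. Marker shares were compared by exact permutation.

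Members and lists were chosen with earlier results of these data known. Named were Myc, Traf6 and Hdac3, the 12 largest called rises and falls without overlap, up to 4 called members of each list (2 where none was called), the 6 most even rises and falls of at least 1 log2 unit, and the 6 largest differences not called in each direction. Some genes that this rule names are not reported here. Alternatives changed the scaling, filter, pseudocount, trend, weights, libraries and replicate block. Coordinates and promoters are RefSeq's on GRCm38.p6.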

Additional observations from a re-analysis of the deposited data

How the results depend on the processing

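Each of the 256 called genes that was tested kept its sign under every alternative, whereas the count moved. It was 135 under median-ratio scaling (93 higher, 42 lower), 124 under quantile normalization (86, 38), 61 with the 6 libraries alone (52, 9), 159 at a mean FPKM of at least 5 (131, 28) and 4 with no filter (1, 3). It rose to 409 with a pseudocount of 0.1 (348, 61) and to 5043 with array weights (3216, 1827), which were estimated gene by gene after the default estimate did not converge. A pseudocount of 0.5 gave 357, no variance trend 267, and the filter over all 9 libraries 214. Leaving out 1 library gave 0 to 1828 calls (0 to 1221 higher, 0 to 607 lower). Without treated library 2 limma called 0 and 1402 genes had an unadjusted p under 0.05. Without sham library 1 it called 0 and 2201 had such a p. Of the 256 calls, 255 were also made without treated library 1. Replicate numbers were not known to pair libraries: deviations of same-numbered libraries correlated at 0.193, 0.166 and 0.0122, and a replicate block gave 384 calls (320 higher, 64 lower).

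Direction turned for 2 named genes. Myc was -0.69 with array weights (limma adjusted p = 0.0305), -0.066 without treated library 1 and -0.46 without sham library 1, and ran from -0.46 to 0.59 over the fits with 1 library left out. Gstm1 was -0.092 with array weights, -0.036 under median-ratio scaling, -0.072 under quantile normalization, -0.38 without treated library 1 and -0.11 without sham library 3, and ran from -0.38 to 0.32 over those fits. The cause was not tested. Over all named genes and settings 534 values lost and 171 gained a call, and 2031 kept their side of the threshold. With 3 libraries a group, permutation of a single value cannot go below 0.1.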

Other observations

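Of the 256 called genes 187 were in no list, and the genes below were chosen from them after their values were seen. Clec7a, the beta-glucan receptor dectin 1, read 3.21, 3.09 and 2.06 FPKM in sham and 6.61, 24.4 and 34.4 treated (2.34 ± 0.44, limma adjusted p = 0.0341). Cd52, a small surface glycoprotein of leukocytes, read 14.1, 16.8 and 9.24 and 26.4, 90.9 and 158 FPKM (2.39 ± 0.52), and Fcgr4, an IgG receptor, 2.75, 5.94 and 5.1 and 9.74, 22.4 and 73.7 (2.30 ± 0.54). The NADPH oxidase subunits Cyba (1.88 ± 0.42) and Ncf1 (1.54 ± 0.35) were higher. Macrophage markers moved in the same libraries, and their part in these values was not tested.

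The S100 proteins S100a4 (3.13 ± 0.61), S100a11 (2.94 ± 0.39) and S100a6 (2.61 ± 0.41) were higher, S100a11 at 7.9, 8.26 and 5.81 FPKM in sham and 28.7, 79.2 and 105 treated. The thymosin Tmsb4x, which holds monomeric actin, read 126, 195 and 134 and 269, 893 and 1179.7 FPKM (2.13 ± 0.50). Among the falls outside the lists were Prkaa2, a catalytic subunit of AMP-activated kinase, at 14.9, 12.7 and 13.1 FPKM in sham and 6.81, 7.08 and 6.37 treated (-0.91 ± 0.18), the fatty aldehyde dehydrogenase Aldh3a2 (-1.41 ± 0.29) and Pex11a, which acts in peroxisome division (-1.31 ± 0.23).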
